A study of Mus musculus with 18 samples.

Results

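Matrix metalloproteases are zinc-dependent enzymes that cut collagens, laminins, fibronectin and other proteins of the extracellular matrix. They are made as inactive precursors and are active once the propeptide is removed, by furin-like convertases inside the cell or by plasmin and other metalloproteases outside it. Tissue inhibitors of metalloproteases (TIMPs) bind the active site and block it, so the balance of enzyme and inhibitor sets how much matrix is cut. Skeletal muscle precursor cells make both, and the pair is known for roles in their migration and fusion and in muscle repair. The genes described here are 6 metalloprotease genes, Mmp2, Mmp14, Mmp17, Mmp9, Mmp3 and Mmp13, and 3 inhibitor genes, Timp1, Timp2 and Timp3. They were chosen by symbol with results of these libraries already known, so their changes are given as description. They are 9 of the 24028 genes in the count table, which holds 23 Mmp and 4 Timp genes. All 9 passed the filter on low counts that left 13602 genes for testing.

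The mouse myoblast line C2C12 was profiled by RNA sequencing of polyadenylated transcripts in 18 cultures, which formed 6 groups of 3 separate cultures. The induced groups carried a codon-altered mouse Dux, a codon-altered human DUX4 or a firefly luciferase transgene and were treated with doxycycline at 2 µg/ml for 36 h, and the uninduced group of each line was harvested at the same time without it. Both Dux and its human counterpart DUX4 are transcription factors with a pair of homeodomains, and luciferase serves as the control protein. All cultures were grown with puromycin to select for the transgene. There was 1 clone per transgene. In any comparison between lines, effects of the transgene, the clone and the line thus cannot be told apart, and a C2C12 line without a transgene was not analysed here.

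Totals ran from 11010586 to 17179642 counts per library. Zscan4c, a gene activated by mouse Dux, averaged 18695 CPM in the induced Dux line and between 2.71 and 3.71 CPM in the other 5 groups. The 5 myoblast markers (Myod1, Myf5, Des, Cdh15 and Chrna1) had sums of 1374 to 1543 CPM in induced and 1492 to 1503 CPM in uninduced Dux libraries, of 951 to 990 CPM in induced and 725 to 758 CPM in uninduced DUX4 libraries, and of 2161 to 2287 CPM in induced and 2830 to 2875 CPM in uninduced luciferase libraries. The sum of the DUX4 line followed Chrna1, an acetylcholine receptor subunit (log2 1.21, SE 0.0503), while Myod1 (-2.84, SE 0.124), Des (-1.48, SE 0.0554) and Cdh15 (-1.60, SE 0.0587) were called lower with DUX4 and Myf5 higher (0.34, SE 0.122). In the Dux line Cdh15 (-1.80, SE 0.0580), Myod1 (-0.48, SE 0.0768) and Chrna1 (-0.35, SE 0.0499) were called lower and Des higher (0.40, SE 0.0521). Myf5 was also called lower there, with a fitted value of -2.19 (SE 0.837) that depends on the prior count. It had 2 counts in all in induced Dux cultures, below the level of 3 counts taken as the floor. All 5 markers were called lower in the luciferase line, from -0.39 to -0.35 on the log2 scale. Libraries of the induced Dux group differed most from each other, with a chi-square per degree of freedom of up to 27.3 between pairs, against at most 4.39 within any other group. Replicate 1 of that group stood apart for Timp1 and Timp3, whose values without it are given below. Of the 13602 genes tested, 49.5% of those called in the Dux response were higher (4643 higher and 4728 lower), against 31.6% (3199 higher and 6922 lower) when libraries were scaled by their totals alone. That scaling moved the median log2 fold change of all genes by over 0.1 in the Dux response, to -0.25 against -0.01.

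Levels are CPM, counts scaled to a common library total with TMM factors. A fold change compares induced with uninduced cultures of the same line, with its standard error (SE) on the log2 scale, and a gene is called higher or lower when the edgeR quasi-likelihood test gave an adjusted p under 0.05 over all genes tested. In bulk RNA, fewer cells that express a gene and less of its RNA per cell cannot be told apart. In the Dux response 4 of the 9 genes were called higher, where 34.1% of all genes were, and 4 lower, where 34.8% of all genes were. In the DUX4 response a fold could be given for 7 of the 9 genes, with 4 called higher (34.4% of all genes) and 3 lower (33.1% of all genes). In the luciferase response it could be given for 8 genes, with 5 called higher (14.7% of all genes) and 1 lower (16.4% of all genes). Since the genes were chosen with these contrasts known, nothing is read from the counts beside their backgrounds.

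**Figure D1:**
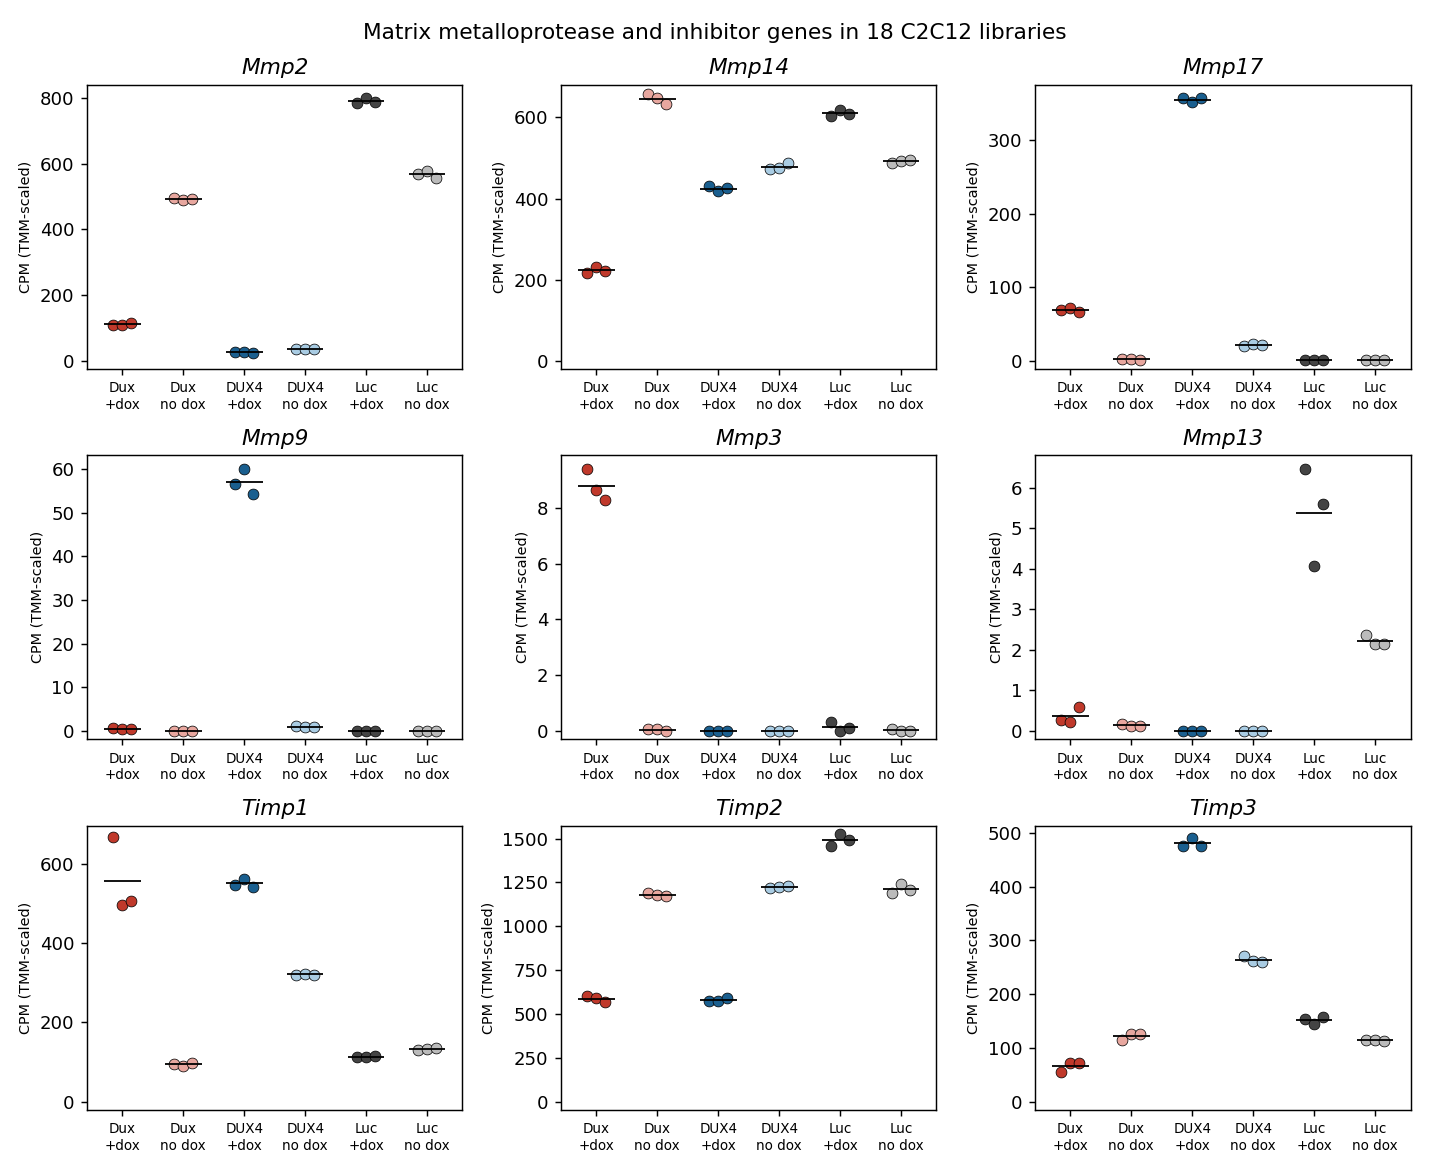
Level of each gene in every library, in CPM on a linear axis that differs between panels, for induced (+dox) and uninduced (no dox) cultures of the Dux, DUX4 and luciferase (Luc) lines. Points are the 3 libraries of a group and the bar is their mean: Mmp2 was highest in the luciferase line, Mmp9 and Mmp17 in the induced DUX4 line, and Mmp3 in the induced Dux line.

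Promoter sequences were available from RefSeq (GRCm38.p6) for 6 of the 9 genes, namely Mmp3, Mmp13, Mmp14, Timp1, Timp2 and Timp3. Each window ran from 250 bases before to 50 bases after the start site. The windows were searched for the AP-1 motif TGANTCA, which reads the same on both strands and is bound by Fos and Jun proteins. It was found in the windows of Mmp3, starting 46 bases before the start site as TGAGTCA, and of Mmp13, starting 35 bases before it as TGACTCA, and in none of the other 4. Of all 32851 mouse promoter windows, 7.81% held it. A window search for the human DUX4 motif found it in none of the 6 and in 0.0365% of all windows. A match is a description of the letters, not a site shown to be used. Only exact matches to each motif were sought, so a window without a match may still hold a variant of it. The 150 bases before the start site are printed for the 2 metalloprotease genes that hold the motif and for Timp1, the inhibitor gene with the largest change, with AP-1 matches in capitals.
Mmp3 (chr9:7445672-7445821, plus strand): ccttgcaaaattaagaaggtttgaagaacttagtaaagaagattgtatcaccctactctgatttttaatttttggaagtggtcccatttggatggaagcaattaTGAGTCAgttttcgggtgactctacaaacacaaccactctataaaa
Mmp13 (chr9:7272364-7272513, plus strand): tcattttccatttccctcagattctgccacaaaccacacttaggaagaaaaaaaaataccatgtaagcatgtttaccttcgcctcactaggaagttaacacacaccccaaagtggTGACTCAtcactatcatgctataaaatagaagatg
Timp1 (chrX:20870016-20870165, plus strand): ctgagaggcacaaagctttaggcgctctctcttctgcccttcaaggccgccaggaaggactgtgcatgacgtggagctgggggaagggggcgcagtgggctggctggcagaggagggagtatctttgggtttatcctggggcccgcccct

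Per kilobase of exon, Mmp2 and Mmp14 had the highest mean levels of the 6 metalloprotease genes in every group except induced DUX4 cultures, and both were lower in induced than in uninduced Dux cultures. Mmp2 (chr8:92827291-92853420 on GRCm38, plus strand) encodes gelatinase A, a secreted enzyme that cuts denatured collagen and collagen of basement membranes. It had 108.7, 109.9 and 113.6 CPM in induced Dux cultures, against 496.4, 489.3 and 492.5 CPM in uninduced Dux cultures. The groups were far apart, and the level was 4.45-fold lower with Dux (log2 -2.15, SE 0.0420). Cultures of the DUX4 line had 25.6, 25.7 and 23.6 CPM of Mmp2 when induced, against 34.6, 34.7 and 35.7 CPM when uninduced. That was a smaller fall without overlap (log2 -0.49, SE 0.0478), on a level already low before induction. The luciferase line went the opposite way, with 786, 802 and 788 CPM in induced cultures, against 570, 579 and 559 CPM in uninduced cultures (log2 0.48, SE 0.0394). The order of the 6 group means was luciferase induced, luciferase uninduced, Dux uninduced, Dux induced, DUX4 uninduced and DUX4 induced, and no neighbours in it overlapped.

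Mmp14 (chr14:54431612-54445364, plus strand) encodes a membrane-anchored enzyme, MT1-MMP, that activates the Mmp2 precursor at the cell surface with Timp2 as the bridge. It had 217, 232 and 220 CPM in induced Dux cultures, against 658, 647 and 632 CPM in uninduced Dux cultures, a 2.90-fold lower level (log2 -1.53, SE 0.0401). Induced DUX4 cultures had 431, 417 and 425 CPM, against 473, 476 and 488 CPM in uninduced DUX4 cultures (log2 -0.17, SE 0.0390). Induced luciferase cultures had 602, 618 and 610 CPM, against 487, 493 and 495 CPM in uninduced luciferase cultures (log2 0.31, SE 0.0389). Induced and uninduced libraries did not overlap in any line, and the fall in the DUX4 line was 1.13-fold. The order was Dux uninduced, luciferase induced, luciferase uninduced, DUX4 uninduced, DUX4 induced and Dux induced, and only luciferase uninduced and DUX4 uninduced libraries overlapped as neighbours.

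Mmp17 rose with both factors. The gene (chr5:129584169-129611099, plus strand) encodes MT4-MMP, an enzyme held on the cell surface by a glycosylphosphatidylinositol anchor. It had 68.2, 71.6 and 66.7 CPM in induced Dux cultures, against 1.87, 1.74 and 1.15 CPM in uninduced Dux cultures, a 43.7-fold higher level (log2 5.45, SE 0.0945). Induced DUX4 cultures had 357, 352 and 357 CPM, against 19.3, 22.2 and 20.6 CPM in uninduced DUX4 cultures, a 17.2-fold higher level (log2 4.10, SE 0.0622). Every library with induced Dux or DUX4 was above every other library of the series, and no neighbours in the order of the 6 groups overlapped. Induced luciferase cultures had 0.622, 0.452 and 0.537 CPM, against 0.923, 0.853 and 0.829 CPM in uninduced luciferase cultures, a difference that was not called (log2 -0.69, SE 0.254).

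Mmp9 and Mmp3 were each highest with 1 of the factors, Mmp9 in induced DUX4 and Mmp3 in induced Dux cultures. Mmp9 (chr2:164940780-164955850, plus strand) encodes gelatinase B, best known from neutrophils, macrophages and osteoclasts. It had 56.6, 60.1 and 54.2 CPM in induced DUX4 cultures, against 1.19, 0.898 and 0.905 CPM in uninduced DUX4 cultures, a 56.3-fold higher level (log2 5.81, SE 0.141). In the Dux line it had 9, 5 and 6 counts in induced cultures, against 0, 2 and 0 counts in uninduced cultures. The ratio of the summed counts, scaled for depth, was 10.6, with a 95% exact (Clopper-Pearson) interval of 2.58 to 93.5 that covers counting error only, and it was called higher. Both uninduced counts came from replicate 2, so without that library the uninduced Dux group holds no count, and the fitted log2 fold change, which depends on the prior count, was 5.86 against 3.19 with it. The luciferase line had 1 count in induced and 1 in uninduced cultures, and no fold is given. Below induced and uninduced DUX4 cultures, induced Dux cultures were next in level, without overlap with them.

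Of 6 macrophage and other leukocyte markers, Cd68, Csf1r and Itgam were higher along with Mmp9 in the DUX4 line, and Ptprc, Adgre1 and Lyz2 had at most 5 counts in either group. The summed level of the 6 was 33.9 to 36.4 CPM in induced DUX4 libraries, against 3.47 to 4.49 CPM in uninduced DUX4 libraries. Cd68, a lysosomal membrane protein, averaged 20.9 CPM in induced and 1.74 CPM in uninduced DUX4 cultures. Csf1r, the receptor for colony-stimulating factor 1, averaged 12.4 CPM in induced and 2.26 CPM in uninduced DUX4 cultures. Itgam, an integrin chain of myeloid cells, averaged 2.04 CPM in induced and 0.0209 CPM in uninduced DUX4 cultures. The defining leukocyte gene Ptprc had 0 counts in both groups, where 3 counts over a group are 0.0675 and 0.0669 CPM, and the macrophage gene Adgre1 had 3 counts in induced and 0 in uninduced DUX4 cultures. The lysozyme gene Lyz2 had 2 counts in induced and 5 in uninduced DUX4 cultures (log2 -1.17, SE 1.03, not called). The summed level was 4.69 to 6.18 CPM in induced and 1.19 to 2.42 CPM in uninduced Dux libraries. Luciferase libraries had 0.809 to 1.68 CPM in induced and 0.692 to 1.66 CPM in uninduced cultures. The part of such cells in the Mmp9 result was not tested.

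Mmp3 (chr9:7445822-7455975, plus strand) encodes stromelysin 1, which cuts proteoglycans, laminin and fibronectin and activates other metalloprotease precursors. It had 143, 115 and 113 counts in induced Dux cultures, against 1, 1 and 0 counts in uninduced Dux cultures. This corresponds to 8.77 ± 0.575 CPM in induced Dux cultures (SD, n = 3) and a count ratio of 197 (exact interval 54.1 to 1630). No count of Mmp3 was seen in any DUX4 library, induced or uninduced, so that no fold can be given there and the level is below what 3 counts over a group stand for. The luciferase line had 5, 0 and 2 counts in induced cultures, against 1, 0 and 0 counts in uninduced cultures, which was not called (ratio 6.98, exact interval 0.897 to 315).

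Mmp13 (chr9:7272514-7283331, plus strand) encodes collagenase 3, which cuts fibrillar collagen. It had 6.47, 4.07 and 5.60 CPM in induced luciferase cultures, against 2.37, 2.13 and 2.14 CPM in uninduced luciferase cultures, a 2.43-fold higher level (log2 1.28, SE 0.192). Among 5 osteoblast markers, the osteocalcin genes Bglap (2.01-fold) and Bglap2 (2.35-fold) were also called higher there, and the summed level of the 5 was 3.98 to 4.71 CPM in induced and 1.79 to 2.56 CPM in uninduced luciferase libraries. Bglap and Bglap2 are near-identical copies that can share reads, the osteoblast factor gene Sp7 had 16 counts in induced and 14 in uninduced luciferase cultures, Alpl had 1 count in each, and Ibsp had none in either. The part of such cells in the Mmp13 result was not tested. In the Dux line Mmp13 had 4, 3 and 8 counts in induced cultures, against 2, 2 and 2 counts in uninduced cultures, which was not called (log2 1.35, SE 0.651). It had no count in any of the 6 DUX4 libraries. Mmp3 and Mmp13, the 2 genes with an AP-1 motif in the window, thus had different patterns, with Mmp3 highest in induced Dux and Mmp13 in induced luciferase cultures.

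Among the inhibitors, Timp1 was higher with both factors and Timp2 was lower with both. Timp1 (chrX:20870166-20874735, plus strand) encodes a secreted inhibitor that also binds the Mmp9 precursor. It had 666, 497 and 506 CPM in induced Dux cultures, against 94.2, 90.0 and 97.6 CPM in uninduced Dux cultures, a 5.93-fold higher level (log2 2.57, SE 0.0816). Replicate 1 was the highest induced Dux library, and without it the log2 fold change was 2.40. Timp1 had 547, 562 and 542 CPM in induced DUX4 cultures, against 320, 322 and 320 CPM in uninduced DUX4 cultures, a 1.72-fold higher level (log2 0.78, SE 0.0763). It had 112, 112 and 116 CPM in induced luciferase cultures, against 130, 134 and 135 CPM in uninduced luciferase cultures. That difference was called lower (log2 -0.23, SE 0.0786), but the call was lost when any 1 of the 6 luciferase libraries was left out, with values from -0.25 to -0.22. Induced Dux and induced DUX4 libraries overlapped, and below them the order was DUX4 uninduced, luciferase uninduced, luciferase induced and Dux uninduced without overlap. Timp1 lies within Syn1 on the opposite strand with no shared exon, and Syn1 averaged between 6.94 and 30.1 CPM over the 6 groups.

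Timp2 (chr11:118301069-118355740, minus strand) encodes the inhibitor that bridges Mmp14 and the Mmp2 precursor. It had 601, 591 and 570 CPM in induced Dux cultures, against 1190, 1178 and 1171 CPM in uninduced Dux cultures (log2 -1.01, SE 0.0384). It had 576, 576 and 591 CPM in induced DUX4 cultures, against 1216, 1227 and 1230 CPM in uninduced DUX4 cultures (log2 -1.08, SE 0.0384). The fold decreases were 2.01 in the Dux line and 2.11 in the DUX4 line. The level was higher in the luciferase line, with 1456, 1525 and 1494 CPM in induced cultures, against 1191, 1242 and 1207 CPM in uninduced cultures (log2 0.30, SE 0.0379). Uninduced DUX4 libraries lay within the range of uninduced luciferase libraries, and uninduced Dux libraries just below it. Induced Dux and induced DUX4 libraries overlapped.

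Timp3 moved in opposite directions with the 2 factors. The gene (chr10:86300372-86349506, plus strand) encodes the inhibitor that is bound to the matrix and also blocks several ADAM enzymes. It had 54.6, 71.2 and 72.4 CPM in induced Dux cultures, against 115, 126 and 125 CPM in uninduced Dux cultures, a 1.85-fold lower level (log2 -0.89, SE 0.0754). Replicate 1 was the lowest induced Dux library, and without it the log2 fold change was -0.78. Induced DUX4 cultures had 475, 491 and 476 CPM, against 271, 262 and 259 CPM in uninduced DUX4 cultures, a 1.82-fold higher level (log2 0.86, SE 0.0708). Timp3 had 155, 145 and 157 CPM in induced luciferase cultures, against 114, 115 and 112 CPM in uninduced luciferase cultures (log2 0.42, SE 0.0726). The order was DUX4 induced, DUX4 uninduced, luciferase induced, Dux uninduced, luciferase uninduced and Dux induced, without overlap between neighbours. Timp3 shares 1733 exonic bases with Syn3 on the opposite strand, so its counts are uncertain to the extent that strand was not used. Syn3 averaged between 0.597 and 2.16 CPM over the 6 groups.

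**Figure D2:**
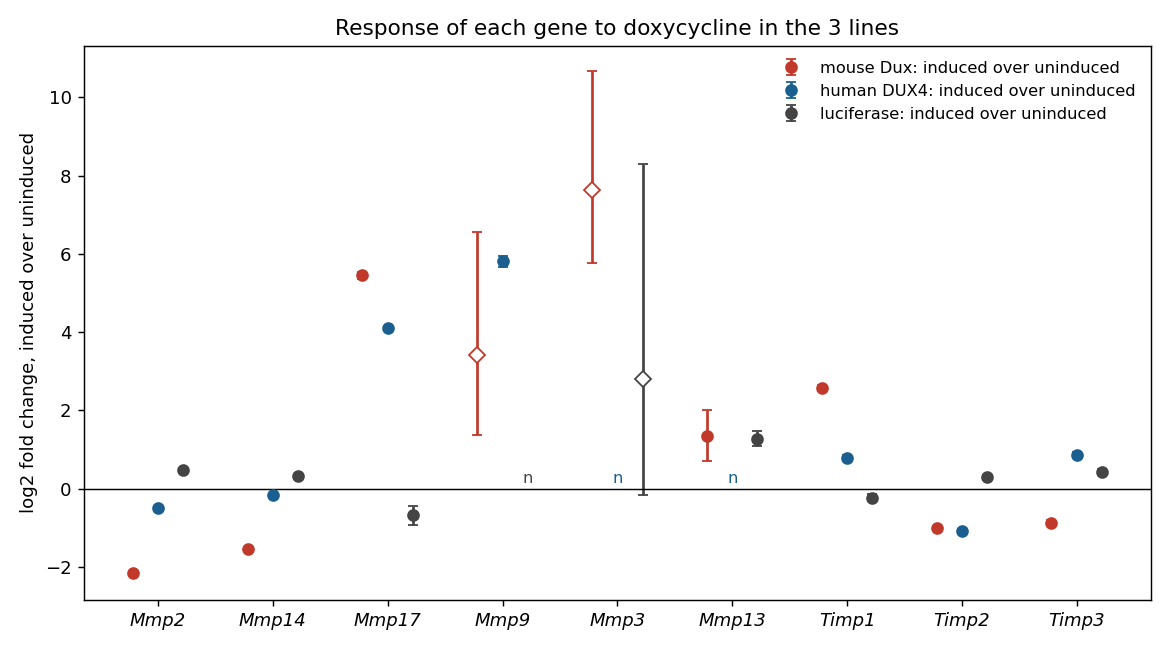
Log2 fold change of each gene, induced over uninduced, in the Dux, DUX4 and luciferase lines. Filled circles are fitted values with the SE, open diamonds are ratios of summed counts with a 95% exact interval where a group held at most 3 counts, and "n" marks genes with at most 3 counts in both groups. Mmp17 rose in the Dux and DUX4 lines, Timp2 fell in both, and Timp3 moved in opposite directions.

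The responses were then set against each other as differences of log2 fold changes in the same model. Between Dux and luciferase, 6 of the 8 genes with a value differed, where 60% of all genes did. Not called were Mmp3 (4.97, SE 2.66) and Mmp13 (0.07, SE 0.441). The Mmp3 value rests in part on 7 counts in induced and 1 in uninduced luciferase cultures. Between DUX4 and luciferase, 6 of 6 differed, where 55% of all genes did. These 2 comparisons share the luciferase libraries. Between Dux and DUX4, 5 of 7 differed, where 65.2% of all genes did. Mmp2 fell further with Dux than with DUX4, by a log2 difference of -1.67 (SE 0.0630), and Mmp14 likewise by -1.36 (SE 0.0556). Timp1 responded more to Dux than to DUX4 by 1.79 (SE 0.109), and Mmp17 by 1.35 (SE 0.136). The Timp3 responses were -1.75 apart (SE 0.103). The Timp2 responses were not called different, with a difference of 0.07 (SE 0.0538). The Mmp9 difference was -2.63 (SE 1.36) and was not called. It rests on the 2 counts of uninduced Dux replicate 2, and without that library it was 0.0413. It was called with DESeq2 (-2.43) and without uninduced Dux replicate 3 (-3.17).

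The lines also differed before induction. Of the 9 genes, 5 were called different between uninduced Dux and uninduced luciferase cultures, where 65.3% of all genes were, and 6 between uninduced DUX4 and uninduced luciferase cultures, where 73% of all genes were. Uninduced DUX4 cultures had 35.0 ± 0.588 CPM of Mmp2, against 569 ± 10.4 CPM in uninduced luciferase cultures (SD, n = 3 each), a log2 difference of -4.02 (SE 0.0464). Mmp17 was higher in uninduced DUX4 than in uninduced luciferase cultures by 4.56 (SE 0.119), Timp1 by 1.28 (SE 0.0782) and Timp3 by 1.22 (SE 0.0727). Mmp9 had 45 counts in uninduced DUX4 and 1 in uninduced luciferase cultures, a ratio of 48.4 (exact interval 8.25 to 1953). That 1 count came from uninduced luciferase replicate 2, and the fitted log2 difference, which depends on the prior count, was 6.93 without that library against 5.12 with it. Mmp13 had 0 counts in uninduced DUX4 and 107 in uninduced luciferase cultures, at least 33.2-fold lower when the empty group is set at 3 counts in all. Mmp14 (-0.04, SE 0.0390) and Timp2 (0.01, SE 0.0379) were not called different between the same groups. Uninduced Dux cultures were closer to uninduced luciferase cultures in Mmp2 (-0.21, SE 0.0395) and Mmp17 (0.84, SE 0.201), while Mmp13 was -3.97 (SE 0.419). Mmp14 was higher in uninduced Dux cultures by 0.39 (SE 0.0390) and Timp1 lower, at -0.50 (SE 0.0794). Differences between uninduced lines and any transgene expression without doxycycline cannot be told apart.

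Levels per kilobase divide CPM by the merged length of all exons annotated for a gene, which can exceed that of the transcript expressed. Comparisons between genes, and the shares and ratios below, depend on these lengths. On this scale the mix of the 6 metalloprotease mRNAs differed between groups. In induced DUX4 cultures Mmp14 made up 48.0 ± 0.512% of their sum, Mmp17 36.2 ± 0.343% and Mmp9 10.8 ± 0.578%. In uninduced DUX4 cultures the shares were 85.4 ± 0.164% for Mmp14, 3.32 ± 0.228% for Mmp17 and 0.300 ± 0.0538% for Mmp9 (SD, n = 3 each). In induced Dux cultures Mmp17 made up 12.1 ± 0.324% and Mmp3 5.68 ± 0.439%, against 0.0938 ± 0.0220% and 0.0103 ± 0.00936% in uninduced Dux cultures. Mmp2 was the largest component in both luciferase groups, with 69.2 ± 0.109% in induced and 66.9 ± 0.502% in uninduced cultures.

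Of the summed inhibitor mRNA per kilobase, Timp1 made up 79.6 ± 2.46% in induced Dux cultures, against 25.0 ± 0.817% in uninduced Dux cultures. In the DUX4 line it made up 74.9 ± 0.420% in induced and 51.0 ± 0.0854% in uninduced cultures. Timp1 made up 24.1 ± 0.440% in induced and 31.4 ± 0.395% in uninduced luciferase cultures, and Timp2 was the largest component of both. Timp1 has the shortest exon length of the 9 genes, 888 bases, and its share depends on that length.

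The summed level of the 3 inhibitor genes was divided by that of the 6 metalloprotease genes. This ratio was 10.8, 8.24 and 8.47 in induced Dux libraries, with a mean of 9.17 ± 1.41, against 1.66 ± 0.0214 in uninduced Dux libraries. Replicate 1 gave the highest of these ratios. The ratio in the DUX4 line was 5.58 ± 0.102 in induced and 7.52 ± 0.114 in uninduced cultures. That of the luciferase line was 1.56 ± 0.0178 in induced and 1.88 ± 0.0279 in uninduced cultures. The ratio was therefore higher with doxycycline in the Dux line and lower in the DUX4 and luciferase lines, with no overlap of libraries in any of them. The metalloprotease sum was 85.8 ± 1.44 in induced and 255 ± 2.90 CPM per kb in uninduced Dux cultures. In the DUX4 line it was 148 ± 1.21 in induced and 94.1 ± 1.54 CPM per kb in uninduced cultures. The sums leave out the other genes of both families, so the ratios hold for the chosen genes and exon lengths only. Among those left out, Mmp11 averaged 25.4 CPM per kb in induced and 23.4 in uninduced Dux cultures. Mmp28 averaged 9.06 CPM per kb in induced and 4.59 in uninduced Dux cultures. These are mRNA levels and say nothing of enzyme activity.

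**Figure D3:**
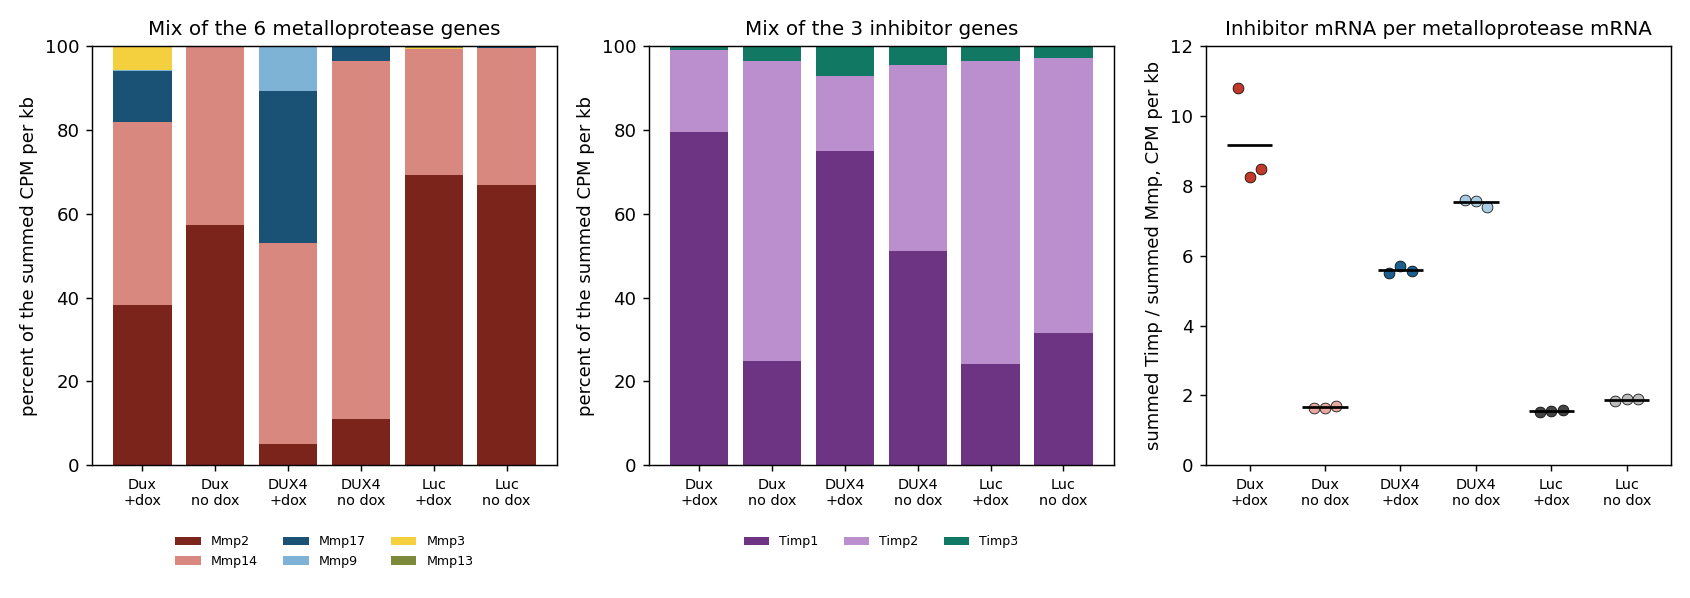
Left and middle, the mean share of each gene in the summed CPM per kb of the 6 metalloprotease genes and of the 3 inhibitor genes, in percent, by group. Right, the ratio of the inhibitor sum to the metalloprotease sum in each library (points) with the group mean (bar), highest in induced Dux libraries at 8.24 to 10.8.

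Over the 18 libraries, the pair of genes most alike among the 9 was Mmp17 and Timp1 (Pearson r = 0.949 of log2(CPM + 0.5)), and the pair most opposed was Mmp2 and Mmp17 (r = -0.912). These correlations describe 6 group means more than 18 separate points. By the same measure, the gene most like each of the 9, outside them and the pathway lists, was Colec12 for Mmp2 (r = 0.995), Tef for Mmp14 (0.985), Olfm2 for Mmp17 (0.997), Rab7 for Mmp9 (0.995) and Chit1 for Mmp3 (0.996). For the others it was AI607873 for Mmp13 (0.989), Tmem158 for Timp1 (0.982), Rarg for Timp2 (0.986) and Irf2 for Timp3 (0.986). Chit1, a chitinase gene, averaged 21.7 CPM in induced and 0.0283 CPM in uninduced Dux cultures. Like Mmp3, it had no count in the DUX4 line. Olfm2, which encodes a secreted olfactomedin protein, averaged 4.49 CPM in induced and 0.136 CPM in uninduced Dux cultures. In the DUX4 line it averaged 14.0 CPM in induced and 2.38 CPM in uninduced cultures.

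The other genes of matrix proteolysis are given by lists, and their counts stand beside the shares of all genes called, which were 34.1% higher and 34.8% lower with Dux, 34.4% and 33.1% with DUX4, and 14.7% and 16.4% in the luciferase line. The median log2 fold change of all genes was -0.01 with Dux and 0.00 in the other two responses. List medians leave out genes with no fold. Of 17 other matrix metalloprotease genes, 7 were tested. With Dux 2 were higher and 3 lower (median 0.00). With DUX4 3 were higher and 3 lower (median of 6 genes 0.03), and in the luciferase line 4 were higher and 2 lower (median of 6 genes 0.41). Mmp15, which encodes the membrane enzyme MT2-MMP, fell with both factors, by 2.98 on the log2 scale with Dux (SE 0.153). It averaged 1.23 ± 0.320 CPM in induced and 9.80 ± 0.183 CPM in uninduced Dux cultures, and 0.134 ± 0.113 CPM in induced and 1.13 ± 0.221 CPM in uninduced DUX4 cultures (SD, n = 3 each). Mmp25, which like Mmp17 encodes an enzyme with a glycosylphosphatidylinositol anchor, had 41 counts in induced and 1 in uninduced Dux cultures (ratio 43.5, exact interval 7.38 to 1758) and none in the DUX4 line. Mmp28, or epilysin, was higher with Dux (0.97, SE 0.168) and lower with DUX4 (-1.43, SE 0.220). Mmp19 was lower with Dux (-0.91, SE 0.111). Mmp16 (0.81, SE 0.146) and Mmp23 (0.35, SE 0.120) were the largest rises with DUX4. With luciferase Mmp11 (0.83, SE 0.0713) and Mmp28 (0.81, SE 0.185) were higher and Mmp23 (-0.52, SE 0.174) and Mmp15 (-0.48, SE 0.0775) lower.

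Of 4 other inhibitor genes, 2 were tested. A2m, which encodes the plasma protease inhibitor alpha-2-macroglobulin, had 1197 counts in induced and 0 in uninduced Dux cultures, at least 423-fold higher by the same rule, with a level of 28.5 ± 3.01 CPM in induced Dux cultures. It had no count in the DUX4 line. Reck, a membrane-anchored metalloprotease inhibitor, was lower with DUX4 (-0.93, SE 0.218), higher in the luciferase line (0.42, SE 0.104) and not called with Dux.

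The ADAM and ADAMTS genes encode related metalloproteases that shed membrane proteins or cut proteoglycans, and 19 of 26 were tested. With Dux 6 were higher and 9 lower (34.1% and 34.8% of all genes, list median 0.04). With DUX4 8 were higher and 10 lower (34.4% and 33.1% of all genes, median -0.20), and in the luciferase line 5 were higher and 5 lower (14.7% and 16.4% of all genes, median 0.05). Adamts16 was the largest fall with both factors, at -3.71 with Dux (SE 0.252) and -1.84 with DUX4 (SE 0.107). Adamts10 (1.25, SE 0.103) and Adamts4, an aggrecanase (1.21, SE 0.0673), were the largest rises with Dux, and Adamts12 the next fall (-1.82, SE 0.496, on 7 counts in induced and 27 in uninduced cultures). Adamts17 (2.61, SE 0.321) and Adamts1 (1.64, SE 0.0830) were the largest rises with DUX4, and Adam12, a myoblast enzyme, fell there (-1.40, SE 0.108). Adam12 (-0.74, SE 0.109) and Adamts5 (-0.63, SE 0.0645) fell in the luciferase line, where Adamts6 (0.54, SE 0.135) and Adamts2 (0.41, SE 0.0497) rose.

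The plasminogen system makes plasmin, which activates several metalloprotease precursors, and 7 of its 9 genes were tested. Plg, the gene of plasminogen itself, was not among them and had 0 counts in every group. With Dux 5 were higher and 0 lower (34.1% and 34.8% of all genes, list median 0.59, against -0.01 for all genes). With DUX4 1 was higher and 3 lower (34.4% and 33.1% of all genes, median of 6 genes -0.43), and in the luciferase line 1 was higher and 3 lower (14.7% and 16.4% of all genes, median -0.10). Serpinb2, an inhibitor of the plasminogen activators, was the largest rise with Dux, with 12.7 ± 0.729 CPM in induced and 3.18 ± 0.458 CPM in uninduced Dux cultures (SD, n = 3 each), a log2 fold change of 1.98 (SE 0.131). The urokinase receptor gene Plaur came next (1.22, SE 0.0960). Plaur was also higher with DUX4 (0.50, SE 0.0837), where the urokinase gene Plau fell (-1.37, SE 0.0576). In the luciferase line Serpine2 was higher (0.53, SE 0.0564) and the tissue plasminogen activator gene Plat lower (-0.32, SE 0.0569).

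Of the 4 proprotein convertase genes 2 were tested. Furin, the convertase that removes the propeptide of Mmp14, was lower with Dux (-0.39, SE 0.0506) and higher with DUX4 (0.26, SE 0.0492), and Pcsk7 was lower with Dux (-0.25, SE 0.0650). Neither was called in the luciferase line.

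All 18 matrix substrate genes were tested. With Dux 4 were higher and 11 lower (34.1% and 34.8% of all genes, list median -0.54). With DUX4 5 were higher and 11 lower (34.4% and 33.1% of all genes, median -1.02), and in the luciferase line 4 were higher and 4 lower (14.7% and 16.4% of all genes, median 0.11). The collagen VI gene Col6a2 averaged 51.6 ± 3.98 CPM in induced and 226 ± 6.61 CPM in uninduced Dux cultures (-2.13, SE 0.0529). The proteoglycan gene Dcn fell with Dux (-2.15, SE 0.176), where the laminin genes Lama4 (3.23, SE 0.489) and Lamb1 (1.55, SE 0.0994) rose. Col1a2 (-3.17, SE 0.0624) and Col6a1 (-2.78, SE 0.0644) were the largest falls with DUX4. The laminin gene Lama2 (2.08, SE 0.167) and the nidogen gene Nid1, whose protein links laminin to collagen IV (1.88, SE 0.0827), were the largest rises there. Thus collagen VI mRNA and Mmp2 mRNA were both lower with each factor. In the luciferase line Dcn (1.02, SE 0.0565) and Col6a2 (0.30, SE 0.0485) rose and Col1a2 (-1.05, SE 0.0584) and Col4a2 (-0.51, SE 0.0989) fell.

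All 13 AP-1 and ETS genes, which encode families of known metalloprotease gene regulators, were tested. With Dux 8 were higher and 3 lower (34.1% and 34.8% of all genes, list median 0.84). With DUX4 3 were higher and 7 lower (34.4% and 33.1% of all genes, median of 12 genes -0.68), and in the luciferase line 4 were higher and 2 lower (14.7% and 16.4% of all genes, median 0.14). Fos averaged 54.4 ± 7.81 CPM in induced and 1.34 ± 0.191 CPM in uninduced Dux cultures (SD, n = 3 each), against 1.20 ± 0.290 CPM in induced and 2.36 ± 0.613 CPM in uninduced DUX4 cultures. The group high in Fos was also the group high in Mmp3, whose promoter window holds an AP-1 motif. Mmp13, whose window holds the motif too, had 15 counts in induced and 6 in uninduced Dux cultures and was not called. Its level was highest in induced luciferase cultures. No test of a link was made. Etv5, an ETS factor, rose with Dux (3.81, SE 0.0914), with DUX4 (2.94, SE 0.0794) and in the luciferase line (0.61, SE 0.0942). Ets2 fell with Dux (-2.53, SE 0.0504) and with DUX4 (-2.97, SE 0.0547). Fosl2 also fell with Dux (-1.26, SE 0.0553), and Ets1 fell with DUX4 (-2.01, SE 0.0801), where Jund rose (0.67, SE 0.101). In the luciferase line Etv1 (0.59, SE 0.107) rose, and Etv4 (-0.53, SE 0.0962) and Jun (-0.34, SE 0.0555) fell.

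**Figure D4:**
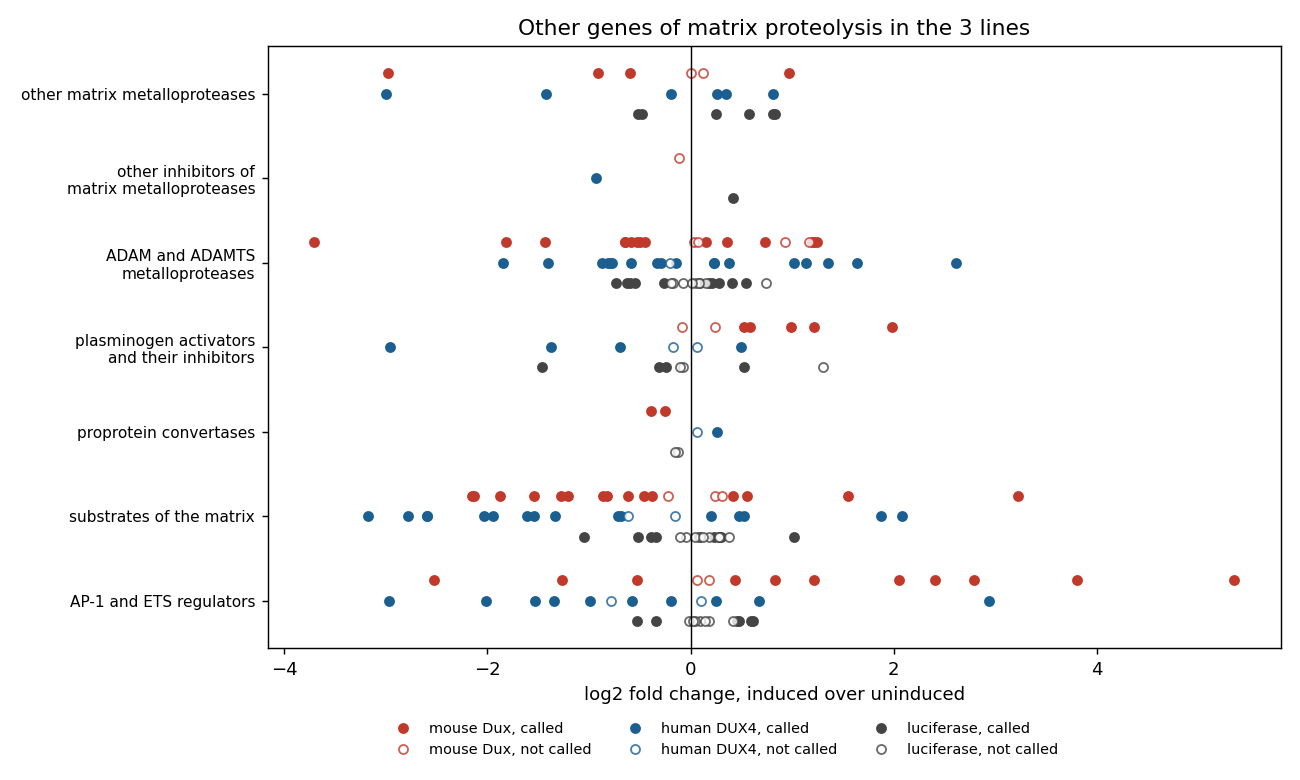
Log2 fold changes, induced over uninduced, of the tested genes in 7 lists of matrix proteolysis in the Dux, DUX4 and luciferase lines, with filled points for called genes and open points for the rest. Genes with at most 3 counts in either group are not drawn, and 11 of 18 substrate genes lay below 0 as called falls in each of the Dux and DUX4 lines, where 34.8% and 33.1% of all genes were called lower.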

How the data were processed

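RNA was extracted from whole cells, and polyadenylated RNA libraries were made with the TruSeq RNA v2 kit, per the labels' protocols. The deposited values are whole-number read counts per gene without normalization. The submitters' processing notes name build mm10 and the tools Bowtie2 2.2.3, TopHat2 2.0.12 and CASAVA. Not given in the sources used here are the counting program, its annotation and its strand setting, which leaves counts of overlapping genes uncertain. The lane of each library is not given either, so groups could not be checked against sequencing batches.

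Genes were kept by filterByExpr. The quasi-likelihood test of edgeR 4.0.16 (R 4.3.3), two-sided, was run on 1 model of 6 group means with TMM scaling (factors 0.896 to 1.07), with Benjamini-Hochberg adjustment over 13602 genes. The biological coefficient of variation was 6.25%. The SE is the log2 fold change divided by the square root of F. The p-values pool the spread of all groups, which was unequal. With 0 counts in a group a fold is a bound from 3 counts over the group, with 1 to 3 counts a ratio with a 95% exact interval, and with at most 3 in both groups it is left out. Such intervals and bounds hold counting error alone. The fit was tested on simulated data.

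Positions and exon lengths come from GENCODE vM21, with all annotated exons of a gene merged. The genes and lists were chosen with earlier results of these data known. Genes named from a list are, in each response, the 2 called genes with the largest rise and the 2 with the largest fall. Of these, 1 gene is not reported here. The gene most like each described gene is the 1 outside them and the lists with the highest Pearson correlation over 18 libraries. Fos in the DUX4 line, Plg, and the fuller values of some genes, were shown after their values were seen. Alternatives within edgeR were median-of-ratios scaling, library size alone, no filter, only the groups compared, a replicate block, and leaving out each library. The test of DESeq2 1.42.0 was a further alternative.

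Replicate numbers in the labels are shared by induced and uninduced cultures. In the Dux line same-numbered libraries deviated together from their group means (r = 0.334, 0.175 and 0.154), so the numbers were taken to pair them. In the DUX4 line (r from -0.0347 to 0.0202) and the luciferase line (r from 0.00682 to 0.0414) they were not. The main model did not include the pairing of the Dux line.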

Additional observations from a re-analysis of the deposited data

Results flagged for a closer look

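A response of 1 line that differed from the response of another, by the test of the difference itself in edgeR with adjustment over all genes, was found for 6 genes. The difference of log2 fold changes, Dux minus luciferase, was -2.63 for Mmp2, -1.85 for Mmp14, 6.14 for Mmp17, 2.80 for Timp1, -1.30 for Timp2 and -1.31 for Timp3. For DUX4 minus luciferase it was -0.96 for Mmp2, -0.49 for Mmp14, 4.79 for Mmp17, 1.01 for Timp1, -1.37 for Timp2 and 0.44 for Timp3. These 2 sets share the luciferase libraries. For Dux minus DUX4 it was -1.67 for Mmp2, -1.36 for Mmp14, 1.35 for Mmp17, 1.79 for Timp1 and -1.75 for Timp3. The sets are set against a background in which 60%, 55% and 65.2% of all genes differed, and line, clone and transgene cannot be told apart.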

How the results depend on the processing

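Over 60 results for the 9 genes, 824 of 843 values under the alternatives kept their direction and their side of the threshold. Of the rest, 6 lost the call, all for Timp1 in the luciferase line with 1 luciferase library left out. A further 6 gained a call and 7 changed sign. The sign changes concerned differences near 0 or on few counts. Mmp13 in the Dux minus luciferase response was 0.07, against -0.18 with library size alone, -0.46 without induced Dux replicate 3, -0.0387 without uninduced Dux replicate 2 and -0.0894 without induced luciferase replicate 2, and leaving out 1 library gave values up to 0.30. Mmp9 in the Dux minus DUX4 response was -2.63, against 0.0413 without uninduced Dux replicate 2, and it was called with DESeq2 (-2.43) and without uninduced Dux replicate 3 (-3.17). Timp2 in the Dux minus DUX4 response was 0.07, against -0.13, called, with library size alone. Timp2 between uninduced Dux and uninduced luciferase cultures was -0.04, against 0.0447 with library size alone. Mmp3 was called in the luciferase response without induced luciferase replicate 2 (2.93) and in the Dux minus luciferase response with DESeq2 (4.95), and Timp3 between the same uninduced cultures with library size alone (0.19) and with only the groups compared (0.10). The cause of these changes was not tested. With only the groups compared, 3032 genes were called higher in the luciferase response, against 2004, and Mmp9 and Mmp13 in the Dux response and Mmp3 in the luciferase response had no value because they did not pass the low-count filter there. In the fit with the replicate block, the number of the 9 genes called was 8 in the Dux, 7 in the DUX4 and 6 in the luciferase response, as without the block. The block changed no call of the 9 genes. It gave each replicate number the same effect in every line, so it did not model a pairing within the Dux line alone. The effect of such a pairing on the calls was not tested. In the Dux line each library's deviations correlated best with those of its own number. This also held for replicates 2 and 3 of the luciferase line and replicate 2 of the DUX4 line, with r of at most 0.0414. The DUX4 and luciferase pairs were taken to share only a number.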
